A study of Mus musculus with 5 samples.

Results

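The 111 genes described here are the Lysosome pathway genes as measured in RAW264.7, a transformed mouse line that behaves like macrophages. They are the genes of the deposited table whose pathway annotation holds the entry Lysosome. The table has 21878 genes, and 123 of them carry that entry. Acp5, Ctsk and Atp6v0d2 were set aside by name, and 9 genes with fewer than 50 estimated counts over the 5 libraries were left out, 7 of them at 0 in every library. RNA was sequenced from cells with vector (1 library), with LPS at 0.5 mg/mL (2 libraries), and with LPS at 0.5 mg/mL and arctigenin at 1 μM (2 libraries), with the doses as labelled. LPS, a lipid of the outer membrane of bacteria, activates macrophages through a receptor on their surface, and arctigenin is a plant lignan. All groups are cultures of a single cell line, and the labels say neither what the vector treatment contained nor whether replicates came from separate cultures. A solvent-only control with LPS is not identified in the labels, and a solvent effect cannot be told apart from that of arctigenin.

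Lysosomes are the acidic compartments in which macrophages break down what they engulf and what they recycle from their own cytoplasm. A proton pump in the membrane acidifies the lumen, and soluble hydrolases (proteases, glycosidases, sulfatases and lipid enzymes) work at that low pH. Most hydrolases receive a phosphomannose tag in the Golgi, are bound there by sorting receptors, and leave in vesicles built with adaptor complexes and clathrin. Many lysosomal genes carry a promoter element that holds the letters CACGTG and is bound by the MiT/TFE transcription factors, TFEB among them. The genes are described by class: 14 cathepsins and other proteases, 17 glycosidases, 8 sulfatases, 9 lipid enzymes with their activators and carriers, 24 membrane proteins, 8 proton pump subunits, 29 adaptors with the sorting machinery, and 2 others, a phosphatase and a nuclease.

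Library totals lay between 19836203 and 21578355 estimated counts, and log2 CPM of the replicates correlated across genes, which are not independent, at 0.989 for LPS and 0.986 for LPS with arctigenin. Levels are given as CPM, the counts of a gene relative to the TMM-scaled total of its library. The 8 macrophage markers of a prepared list were all detected, with a summed level between 5811 and 6733 CPM. All 8 were called with LPS: Csf1r and Lyz2 fell (log2 −2.20 and −1.36), and the other 6 rose, Msr1 (log2 1.54) among them and Mrc1 from 0.558 CPM in vector to 16.7 and 19.2 CPM. Their part in the results was not tested. The 5 fibroblast markers of that list had a summed level of 0.677 CPM in vector, 5.34 and 4.57 CPM with LPS, and 1.12 and 1.16 CPM with LPS and arctigenin. Its collagen genes Col1a1 and Col1a2 stayed under 0.5 CPM in every library, and Dcn made up most of the LPS sum. This sum moved with many of the genes below, and its part in the results was not tested. The 3 endothelial markers summed to between 1.04 CPM in vector and 3.30 CPM with arctigenin, whose part was likewise not tested, and the 4 epithelial, 3 T cell and 3 B cell markers each stayed under 0.6 CPM. In bulk RNA, fewer cells and less RNA per cell cannot be told apart.

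LPS was set against vector to see how activation changed the lysosomal genes. With LPS 49 of the 111 genes rose and 15 fell by edgeR's quasi-likelihood test at an adjusted p under 0.05, which is 44.1% and 13.5% of them. Among all 11575 genes tested 27.1% rose and 24.9% fell (52.0% in either direction). The median log2 fold change of the 111 genes was 0.23, beside −0.01 over all genes. The rises included the saposin precursor Psap, the cholesterol carrier Npc2 and the cathepsins Ctsc and Ctsl, each at least 2-fold. Setting arctigenin against LPS alone asked what the lignan changed in activated cells. Here 64 of the 111 genes fell and 11 rose, 57.7% and 9.91%, while 22.0% of all genes fell and 22.8% rose (44.8% in either direction). The median of the 111 genes was −0.35, beside −0.0028 over all genes. Both comparisons use the same LPS libraries, so a rise in one and a fall in the other are not independent. Most changes were moderate: 24 rises and 11 falls with LPS reached 1.5-fold, as did 28 falls and 1 rise with arctigenin.

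The counts against vector depended on scaling. TMM gave the lone vector library a factor of 1.16, against 0.942 to 0.981 for the others. With library totals in its place the median of all genes against vector moved to −0.26 and 32 of the 111 genes rose and 30 fell, so rises with LPS are changes relative to the typical gene. The class medians with LPS were then 0.17 for proteases and 0.29 for lipid enzymes, but −0.20 for glycosidases, −0.24 for sulfatases, −0.02 for membrane proteins and −0.03 for both the pump and the adaptors. Among genes named below, LPS rises no longer called included those of Ctsa (log2 0.0003), Ctss (0.11), Gaa (0.235), Lipa (0.13) and Hyal1 (0.43). Genes not called with LPS under TMM but called lower under library totals included Hexa (−0.44), Gusb (−0.28), Asah1 (−0.22), Manba (−0.51) and Ctso (−0.38). The falls with arctigenin were less affected, with 70 lower and 7 higher under library totals. The 11 rises with arctigenin were 5 without LPS replicate 1 and 6 without LPS replicate 2. With 1 vector library, the spread behind calls against vector came from the other 4 libraries.

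**Figure D1:**
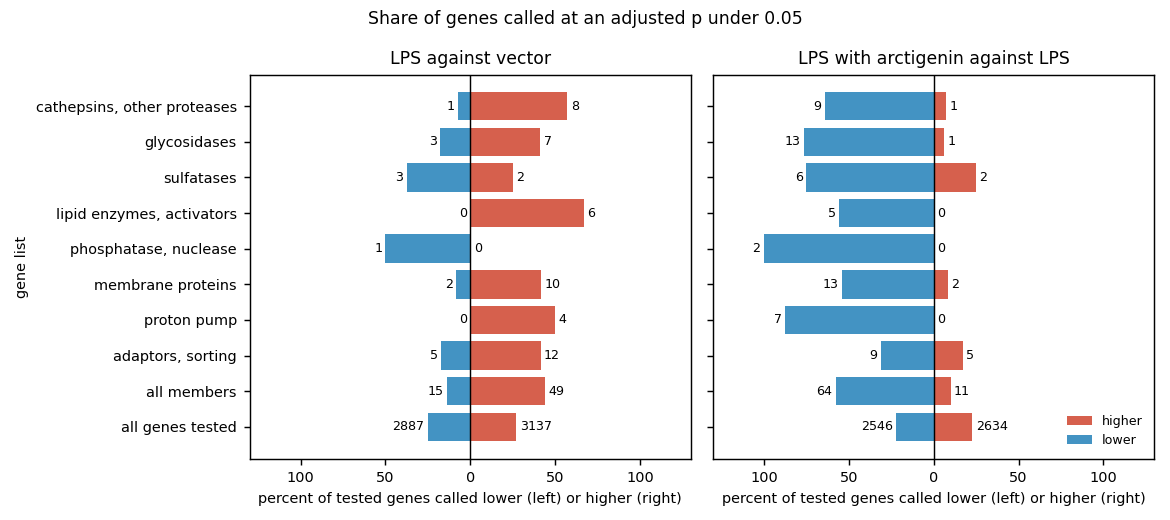
Percent of the genes of each class called higher (red, to the right) or lower (blue, to the left) at an adjusted p under 0.05, with the LPS comparison in the left panel and the arctigenin comparison in the right, and the number of genes beside each bar. Of 111 members 49 rose and 15 fell with LPS, and 11 rose and 64 fell with arctigenin, beside the shares over all 11575 genes tested in the bottom row.

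Promoters were read because many of these genes fell together with arctigenin. RefSeq promoter windows of build GRCm38.p6, 250 bases before to 50 after a start site, were matched by symbol to 87 of the 111 genes. The letters TCACGTG, on either strand, stood in windows of 21 of the 87 genes (24.1%), and in those of 874 of 17492 protein-coding genes (5.00%). The shorter CACGTG, which TCACGTG contains, stood in 26.4% of the 87 genes and 8.91% of protein-coding genes. The related TCATGTG stood in 10.3% and 3.56%. Base composition was not matched between these sets, and a match of letters does not show binding. Of the 21 genes with TCACGTG 18 fell and 1 rose with arctigenin (median log2 −0.44), and of the 66 without it 31 fell and 6 rose (median −0.16). With LPS 8 of the 21 rose and 3 fell, and 29 of the 66 rose and 12 fell. Over all genes tested 22.0% fell and 22.8% rose with arctigenin, and 27.1% rose and 24.9% fell with LPS. Calls were not counted for genes outside the 111 that hold TCACGTG, and the part of the element in the falls was not tested. The stretches below are shown for genes of 6 classes described in the results; capitals mark TCACGTG or its reverse complement CACGTGA, which overlap where TCACGTGA is written.
Lgmn: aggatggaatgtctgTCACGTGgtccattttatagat
Ctsd: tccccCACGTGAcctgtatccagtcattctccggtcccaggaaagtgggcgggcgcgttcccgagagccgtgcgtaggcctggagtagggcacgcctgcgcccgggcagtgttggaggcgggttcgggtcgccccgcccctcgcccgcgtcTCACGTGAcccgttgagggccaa
Naglu: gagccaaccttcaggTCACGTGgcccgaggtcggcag
Sgsh: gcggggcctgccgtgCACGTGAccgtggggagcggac
Lamp1: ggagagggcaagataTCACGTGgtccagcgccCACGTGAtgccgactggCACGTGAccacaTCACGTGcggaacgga
Mcoln1: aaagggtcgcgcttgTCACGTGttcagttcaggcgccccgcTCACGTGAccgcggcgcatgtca
Cd164: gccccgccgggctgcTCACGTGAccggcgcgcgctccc
Atp6v0b: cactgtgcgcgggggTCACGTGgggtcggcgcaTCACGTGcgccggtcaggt
Igf2r: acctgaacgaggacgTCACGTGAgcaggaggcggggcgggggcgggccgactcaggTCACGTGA
Nagpa: cagcctggcctggaaTCACGTGgggc

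All are written 5′ to 3′ on the strand of the gene and end before the start site. On GRCm38.p6 they lie at chr12:102439121-102439157 (Lgmn), chr7:142387904-142388077 (Ctsd), chr11:119355518-119355554 (Sgsh), chr4:117887330-117887381 (Atp6v0b), chr17:12769707-12769770 (Igf2r) and chr16:5204013-5204038 (Nagpa) on the minus strand. On the plus strand they lie at chr11:101070005-101070041 (Naglu), chr8:13159084-13159160 (Lamp1), chr8:3500432-3500495 (Mcoln1) and chr10:41519397-41519434 (Cd164). Lamp1 held 4 such sites within 77 bases, the last ending 9 bases before the start site. Ctsd, Mcoln1, Atp6v0b and Igf2r held 2 each. Of these 10 genes Nagpa, an enzyme of the sorting tag, was the one that was higher with arctigenin. The others fell.

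Among the proteases, rises were most frequent with LPS and falls with arctigenin. With LPS 8 of 14 rose and 1 fell (class median 0.42), and with arctigenin 9 fell and 1 rose (−0.40). Among all genes 27.1% rose and 24.9% fell with LPS, and 22.0% fell and 22.8% rose with arctigenin. Per kilobase of the longest annotated transcript, Ctsl, Ctsb and Ctsd had the highest mean CPM of the 111 genes. Ctsb, a cysteine protease, stood at 4036 CPM in vector, 5822 and 5951 CPM with LPS, and 4409 and 4712 CPM with LPS and arctigenin. Its LPS libraries were above all others, and it rose 1.46-fold with LPS (log2 0.54 ± 0.07, SE, adjusted p = 0.000175) and fell 1.29-fold with arctigenin (log2 −0.37 ± 0.06, SE, adjusted p = 0.000738). The aspartic protease Ctsd stood at 1698 CPM in vector, 2599.7 and 2535 CPM with LPS, and 1705 and 1803 CPM with LPS and arctigenin. It rose 1.51-fold and fell 1.46-fold (adjusted p = 9.02e-05 and 6.16e-05), back to within 0.05 log2 units of vector.

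Lgmn, an asparaginyl endopeptidase that processes cathepsins, stood at 514 CPM in vector, 1086 and 1129 CPM with LPS, and 591 and 669 CPM with LPS and arctigenin. It rose 2.16-fold with LPS (log2 1.11 ± 0.09, SE, adjusted p = 4.98e-06) and fell 1.76-fold with arctigenin (log2 −0.81 ± 0.07, SE, adjusted p = 1.63e-05). Ctsz rose 1.39-fold with LPS and fell 1.49-fold with arctigenin. Ctsa, a carboxypeptidase that also stabilises the neuraminidase Neu1 and the galactosidase Glb1, fell 1.44-fold with arctigenin. Its rise with LPS, 1.19-fold, had an adjusted p of 0.0124, and of 0.0554 and 0.0760 without LPS replicate 1 and 2. Ctss, which trims the invariant chain in antigen presentation, rose 1.29-fold with LPS and fell 1.25-fold with arctigenin (adjusted p = 0.00280, and 0.0510 without LPS replicate 2). Tpp1, a tripeptidyl peptidase, and Ctso fell 1.34-fold and 1.62-fold with arctigenin and were not called with LPS. The aspartic protease Ctse fell 2.25-fold at a low level, from 3.64 ± 0.536 CPM to 1.61 ± 0.326 CPM (SD, n = 2; adjusted p = 0.00972, and 0.0869 without LPS replicate 1).

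The abundant cathepsins Ctsc and Ctsl were not lower with arctigenin. Ctsc, a dipeptidyl peptidase that activates serine proteases of granules, stood at 181 CPM in vector, 512 and 493 CPM with LPS, and 719.8 and 725 CPM with LPS and arctigenin. It rose in both comparisons, 2.77-fold with LPS (log2 1.47 ± 0.08, SE, adjusted p = 2.56e-07) and a further 1.44-fold with arctigenin (log2 0.52 ± 0.06, SE, adjusted p = 7.50e-05), and no libraries overlapped between groups. Ctsl stood at 1411 CPM in vector, 2885 and 2915 CPM with LPS, and 2999.9 and 3259.6 CPM with LPS and arctigenin. It rose 2.06-fold with LPS (adjusted p = 3.15e-06), and its arctigenin libraries were not called against LPS (log2 0.11, adjusted p = 0.174). They were called higher without LPS with arctigenin replicate 1 (log2 0.17, adjusted p = 0.0418) and when predicted transcripts were left out (log2 1.34, adjusted p = 0.00444), a far larger value. Ctsf fell 2.58-fold with LPS, with 30.6 CPM in vector, 12.6 and 11.1 CPM with LPS, and 14.2 and 13.4 CPM with LPS and arctigenin, and did not pass the test with arctigenin (log2 0.22). Napsa passed in neither comparison, and Ctsh was near the limit of detection, with 7.9 to 16.9 estimated counts per library.

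**Figure D2:**
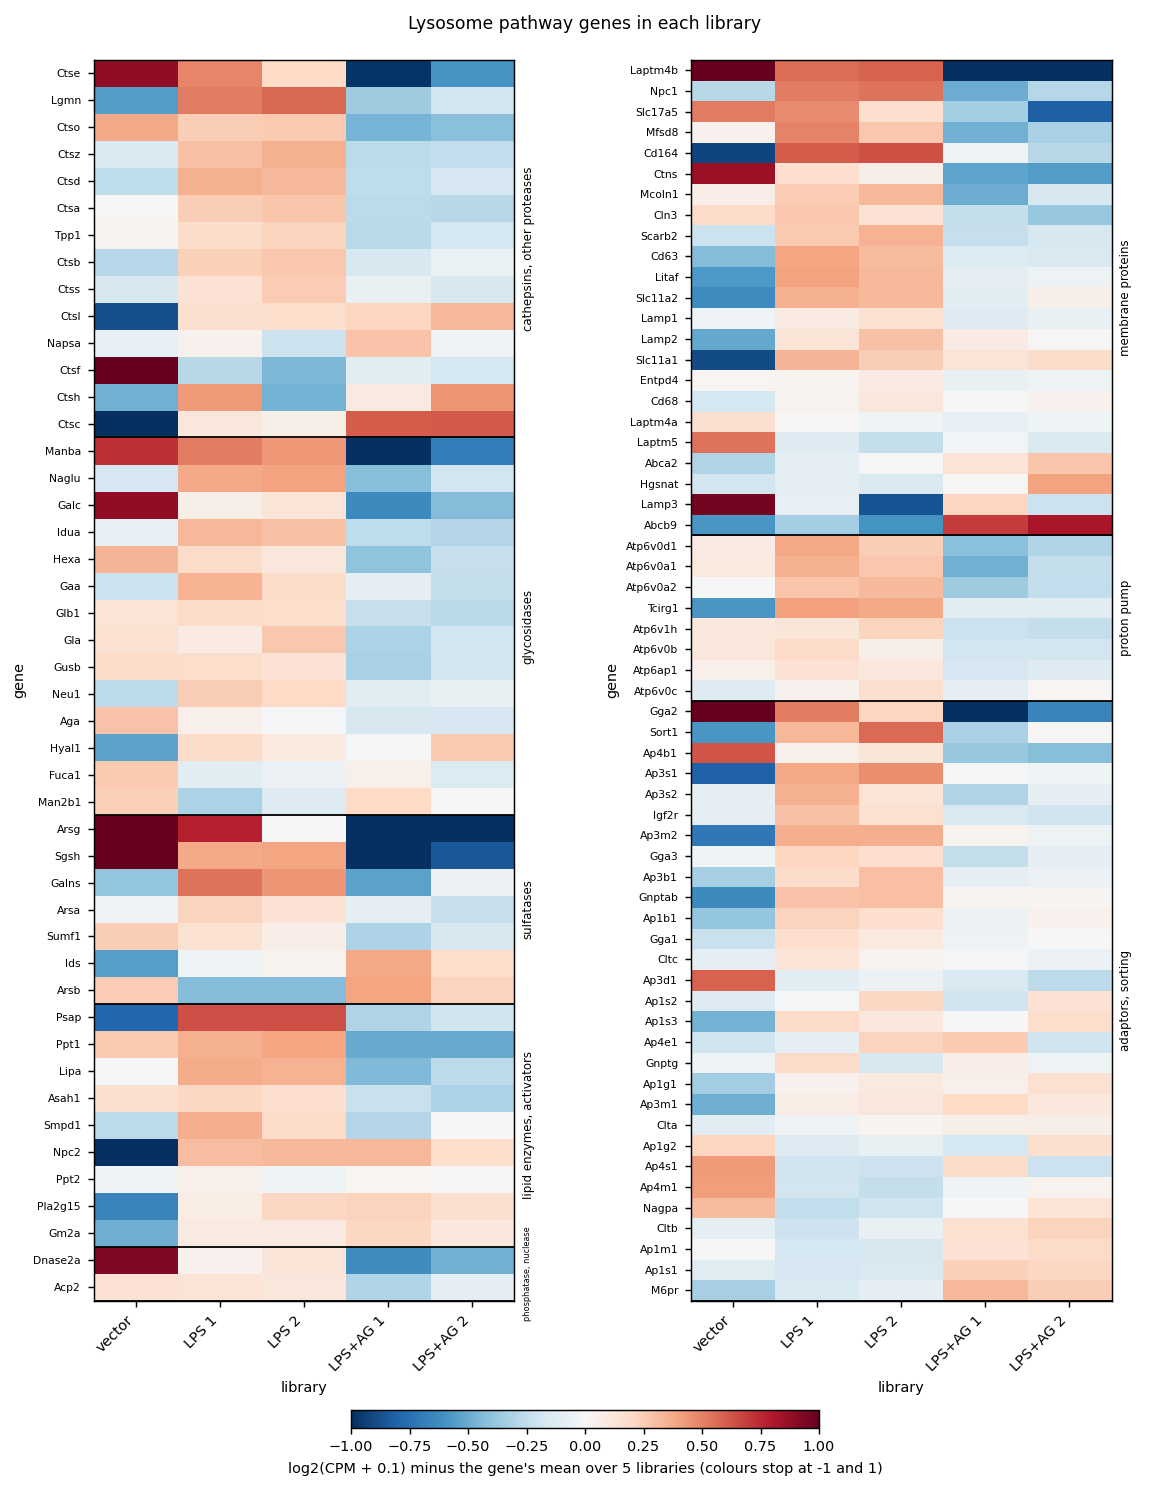
Colour gives log2(CPM + 0.1) of 106 of the 111 genes minus its own mean over the 5 libraries, with genes in rows by class, sorted within a class by fold change with arctigenin, and libraries in columns. Most proteases, glycosidases, lipid enzymes and pump subunits were bluer in both arctigenin libraries than in both LPS libraries, while Ctsc, Arsb and M6pr went the other way.

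Glycosidases cut sugars from glycoproteins, glycolipids and glycosaminoglycans. With arctigenin 13 of 17 were lower and 1 rose (class median −0.44), beside 22.0% and 22.8% of all genes tested. Of the 17 glycosidases 41.2% rose and 17.6% fell with LPS, beside 27.1% and 24.9% of all genes tested. With LPS 7 rose and 3 fell (median 0.05); the 3 falls were 1 without LPS replicate 1 and 5 without LPS with arctigenin replicate 1 or 2. Naglu, an enzyme of heparan sulfate breakdown, stood at 41.7 CPM in vector, 61.1 and 62.2 CPM with LPS, and 35.0 and 41.1 CPM with LPS and arctigenin. Its LPS libraries were above the other 3, with a rise of 1.48-fold and a fall of 1.62-fold. Gaa, which digests glycogen, stood at 61.7 CPM in vector, 91.2 and 81.7 CPM with LPS, and 67.0 and 60.6 CPM with LPS and arctigenin. It rose 1.40-fold with LPS (log2 0.49 ± 0.11, SE, adjusted p = 0.00325) and fell 1.36-fold with arctigenin (log2 −0.44 ± 0.09, SE, adjusted p = 0.00224), with the LPS libraries above all others. The neuraminidase Neu1 rose 1.40-fold with LPS and fell 1.24-fold with arctigenin.

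Manba, the beta-mannosidase, had the largest fall of the class with arctigenin, with 73.4 CPM in vector, 63.0 and 59.7 CPM with LPS, and 22.0 and 27.5 CPM with LPS and arctigenin. The fall was 2.48-fold (log2 −1.31 ± 0.11, SE, adjusted p = 1.60e-05), and LPS against vector was not called (adjusted p = 0.107). Hexa, a hexosaminidase subunit, fell 1.38-fold with arctigenin and was not called with LPS. Gusb, the glucuronidase, and Gla, which cuts galactose from globotriaosylceramide, fell 1.33-fold and 1.34-fold, and the beta-galactosidase Glb1 fell 1.35-fold. Galc, which cuts galactosylceramide, fell in both comparisons, with 47.3 CPM in vector, 26.7 and 27.9 CPM with LPS, and 16.4 and 18.9 CPM with LPS and arctigenin. The falls were 1.73-fold with LPS (adjusted p = 0.000348) and 1.54-fold with arctigenin (adjusted p = 0.00113). Hyal1, a hyaluronidase, rose 1.60-fold with LPS and was not called with arctigenin (log2 −0.01). Man2b1, the alpha-mannosidase, was the 1 rise with arctigenin, 1.25-fold (adjusted p = 0.0363). Its adjusted p was 0.257 and 0.0601 without LPS replicate 1 and 2, and 0.163 without LPS with arctigenin replicate 1. Its fall with LPS, 1.37-fold (adjusted p = 0.0143), was lost without LPS replicate 1 (0.112).

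All 8 sulfatase genes were called with arctigenin, 6 lower and 2 higher, beside 44.8% of all genes tested. With LPS 2 rose and 3 fell (25.0% and 37.5%), beside 27.1% and 24.9% of all genes tested. Those 3 falls were 1 without LPS replicate 2. Sgsh and Arsg, which remove sulfate groups from heparan sulfate, were low throughout. Sgsh stood at 12.5 CPM in vector, 7.06 and 7.13 CPM with LPS, and 2.45 and 2.95 CPM with LPS and arctigenin. Each group lay below the one before it, with a fall of 2.62-fold with arctigenin (log2 −1.39 ± 0.21, SE, adjusted p = 0.000513). With LPS it fell 1.76-fold (adjusted p = 0.0106, and 0.0596 and 0.0542 without LPS replicate 1 and 2). Arsg stood at 9.12 CPM in vector, 4.46 and 2.56 CPM with LPS, and 0.798 and 1.21 CPM with LPS and arctigenin, and fell 3.48-fold with arctigenin (adjusted p = 0.00320) and 2.59-fold with LPS (adjusted p = 0.00809, and 0.0591 without LPS replicate 2). When predicted transcripts were left out the LPS change was log2 −0.67 (adjusted p = 0.652), against −1.37 with them, and the arctigenin change log2 −4.67, against −1.80.

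Galns, which acts on keratan and chondroitin sulfate, rose 1.84-fold with LPS and fell 1.71-fold with arctigenin. It stood at 16.4 CPM in vector, 31.3 and 29.1 CPM with LPS, and 14.7 and 20.6 CPM with LPS and arctigenin. When predicted transcripts were left out neither change was called (log2 1.32 and −1.04). Arsb, the sulfatase of dermatan sulfate, moved in the opposite order. It stood at 73.0 CPM in vector, 45.2 and 45.1 CPM with LPS, and 80.2 and 71.2 CPM with LPS and arctigenin. It fell 1.62-fold with LPS (log2 −0.69 ± 0.10, SE, adjusted p = 0.000257) and rose 1.68-fold with arctigenin (log2 0.75 ± 0.08, SE, adjusted p = 8.88e-05), the largest rise with arctigenin among the called genes of the 111. Ids, the iduronate sulfatase, rose 1.46-fold with LPS. Its rise with arctigenin, 1.22-fold (adjusted p = 0.0199), was lost without LPS replicate 1 (0.157), LPS replicate 2 (0.0698) or LPS with arctigenin replicate 1 (0.118). Sumf1, an enzyme of the endoplasmic reticulum that activates sulfatases, fell 1.27-fold with arctigenin (adjusted p = 0.00595, and 0.0760 without LPS replicate 1).

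**Figure D3:**
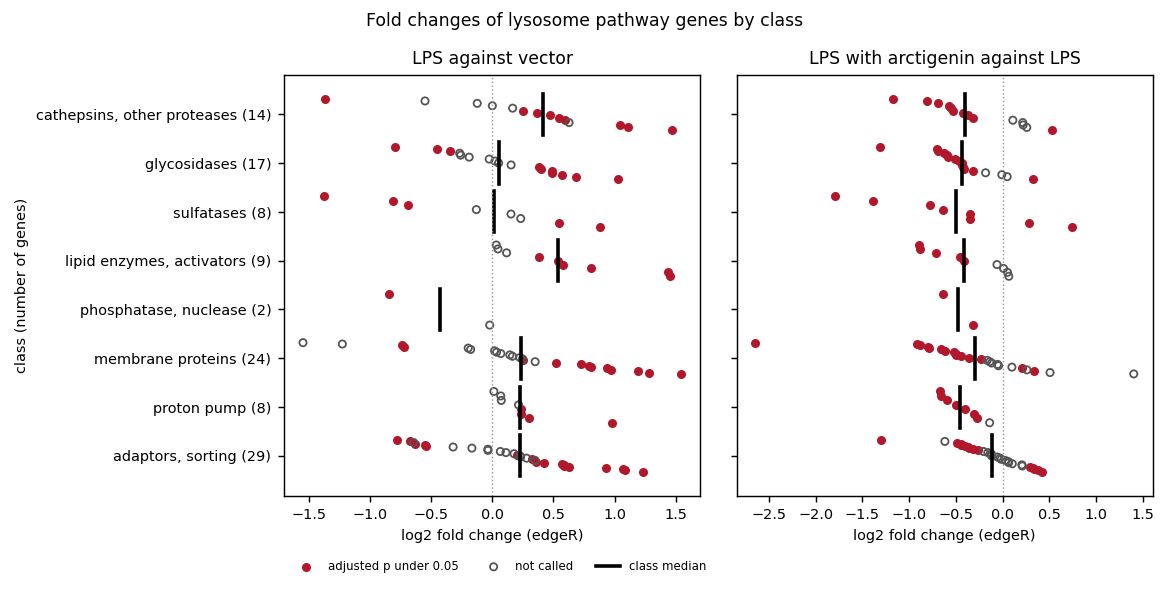
Each point is the fitted log2 fold change of 1 gene, with the LPS comparison on the left, the arctigenin comparison on the right, and classes in rows. Filled points have an adjusted p under 0.05, and black lines are class medians, which with arctigenin lay between −0.49 for sulfatases and −0.12 for adaptors.

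Lipid enzymes, their activators and carriers rose with LPS in 6 of 9 cases with 0 falls (class median 0.54), and with arctigenin 5 fell and 0 rose (−0.42). The shares of all genes tested were 27.1% higher and 24.9% lower with LPS, and 22.0% lower and 22.8% higher with arctigenin. Psap encodes the precursor of the saposins, which present sphingolipids to their hydrolases. It stood at 738 CPM in vector, 1989 and 1995 CPM with LPS, and 1034 and 1111 CPM with LPS and arctigenin. It rose 2.70-fold with LPS (log2 1.43 ± 0.08, SE, adjusted p = 3.77e-07) and fell 1.86-fold with arctigenin (log2 −0.89 ± 0.06, SE, adjusted p = 4.57e-06), with the arctigenin libraries still above vector. Npc2, the soluble carrier that hands cholesterol to the membrane protein Npc1, stood at 276 CPM in vector, 750.2 and 758 CPM with LPS, and 762 and 685 CPM with LPS and arctigenin. It rose 2.73-fold with LPS (log2 1.45 ± 0.09, SE, adjusted p = 6.46e-07) and was not called with arctigenin (log2 −0.06, adjusted p = 0.492). Npc1, counted here among the membrane proteins, stood at 171 CPM in vector, 296 and 301 CPM with LPS, and 147 and 170.1 CPM with LPS and arctigenin. It rose 1.75-fold with LPS and fell 1.88-fold with arctigenin (log2 −0.91 ± 0.08, SE, adjusted p = 1.37e-05), to levels just under that of vector.

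Ppt1, which removes palmitate from proteins, fell 1.84-fold with arctigenin (log2 −0.88 ± 0.06, SE, adjusted p = 4.08e-06), with 293 CPM in vector, 313 and 323 CPM with LPS, and 172 and 173 CPM with LPS and arctigenin. Lipa, the acid lipase that frees cholesterol from its esters, rose 1.30-fold with LPS and fell 1.64-fold with arctigenin, with 244 CPM in vector, 319 and 315 CPM with LPS, and 182 and 206 CPM with LPS and arctigenin. Asah1, the acid ceramidase, fell 1.37-fold with arctigenin and was not called with LPS. The phospholipase Pla2g15 and the ganglioside activator Gm2a rose 1.74-fold and 1.50-fold with LPS and were not called with arctigenin. The acid sphingomyelinase Smpd1 rose 1.45-fold with LPS (adjusted p = 0.0140, and 0.0942 without LPS replicate 1). It fell 1.33-fold with arctigenin (adjusted p = 0.0208, and 0.173 and 0.103 without LPS replicate 1 and LPS with arctigenin replicate 1). Dnase2a, the acid nuclease that digests engulfed DNA, fell 1.79-fold with LPS and 1.55-fold with arctigenin, with 100.2 CPM in vector, 54.1 and 57.7 CPM with LPS, and 34.2 and 37.7 CPM with LPS and arctigenin. The phosphatase Acp2 fell 1.24-fold with arctigenin (adjusted p = 0.0159). This p was 0.110 and 0.0788 without LPS replicate 1 and 2, and 0.0816 without LPS with arctigenin replicate 1.

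Of the 24 membrane proteins 10 rose and 2 fell with LPS (class median 0.24), and 13 fell and 2 rose with arctigenin (−0.29). All genes tested gave 27.1% rises and 24.9% falls with LPS, and 22.0% falls and 22.8% rises with arctigenin. The abundant coat glycoproteins Lamp1 and Lamp2 differed in which comparison was called. Lamp1 stood at 1124 CPM in vector, 1234 and 1286 CPM with LPS, and 1056 and 1099 CPM with LPS and arctigenin. It was not called with LPS, and its fall with arctigenin was 1.17-fold (adjusted p = 0.0109, and 0.0536 and 0.105 without LPS replicate 1 and 2). Lamp2, which also takes part in chaperone-mediated autophagy, rose 1.65-fold with LPS (log2 0.73 ± 0.09, SE, adjusted p = 7.48e-05), with 731 CPM in vector, 1140.5 and 1279.8 CPM with LPS, and 1107 and 1051 CPM with LPS and arctigenin, and was not called with arctigenin. Cd68, a macrophage glycoprotein, stood between 800.2 and 978 CPM in the 5 libraries. Its LPS call, 1.19-fold (adjusted p = 0.0162), was lost without LPS replicate 2 (0.109). The tetraspanin Cd63 rose 1.73-fold with LPS and fell 1.42-fold with arctigenin. Scarb2, a receptor that carries a hydrolase to the lysosome, rose 1.43-fold and fell 1.42-fold.

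Cd164, a sialomucin, had the largest rise with LPS among the 111 genes, 2.92-fold (log2 1.54 ± 0.11, SE, adjusted p = 1.97e-06), with 42.3 CPM in vector, 122 and 125 CPM with LPS, and 77.1 and 66.1 CPM with LPS and arctigenin. With arctigenin it fell 1.72-fold (adjusted p = 5.66e-05), to levels between vector and LPS. Both metal transporters rose with LPS, and with arctigenin the fall of Slc11a2 alone was called. A difference between their changes was not tested. Slc11a1, which pumps iron and manganese out of phagosomes, rose 2.28-fold with LPS, with 115 CPM in vector, 272 and 254 CPM with LPS, and 235 and 244 CPM with LPS and arctigenin, and was not called with arctigenin (log2 −0.14). Slc11a2, its relative in endosomes, rose 1.96-fold and fell 1.29-fold. Mcoln1, a lysosomal calcium channel, was not called with LPS and fell 1.53-fold with arctigenin (log2 −0.62 ± 0.11, SE, adjusted p = 0.00165), with 53.6 CPM in vector, 60.9 and 64.3 CPM with LPS, and 36.1 and 45.6 CPM with LPS and arctigenin.

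Litaf, an endosomal membrane protein that LPS is known to induce, rose 1.92-fold with LPS and fell 1.36-fold with arctigenin. Ctns, the cystine exporter, fell 1.67-fold with LPS and 1.58-fold with arctigenin, with 47.9 CPM in vector, 29.9 and 27.7 CPM with LPS, and 18.4 and 18.0 CPM with LPS and arctigenin. When predicted transcripts were left out its log2 change with LPS was 0.18 (adjusted p = 0.934), and its call with arctigenin was lost too (0.410). Laptm5, a lysosomal protein of blood cells, fell 1.65-fold with LPS and was not called with arctigenin. The sialic acid exporter Slc17a5, the transporter Mfsd8 and Cln3 fell 1.85-fold, 1.74-fold and 1.43-fold with arctigenin (Cln3 adjusted p = 0.000528, and 0.243 without predicted transcripts). Hgsnat, the acetyltransferase of heparan sulfate breakdown, rose 1.26-fold with arctigenin (adjusted p = 0.0472), and its adjusted p was 0.131 and 0.194 without LPS replicate 1 and 2, and 0.170 without LPS with arctigenin replicate 2. Laptm4b had 41 estimated counts in vector, 14 in each LPS library, and 3 and 1 with arctigenin. The ratio of LPS to LPS with arctigenin was 6.56 (95% counting interval 2.29 to 25.7), and its adjusted p of 0.0270 was 0.102, 0.103 and 0.105 without LPS replicate 1, LPS replicate 2 and LPS with arctigenin replicate 2.

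**Figure D4:**
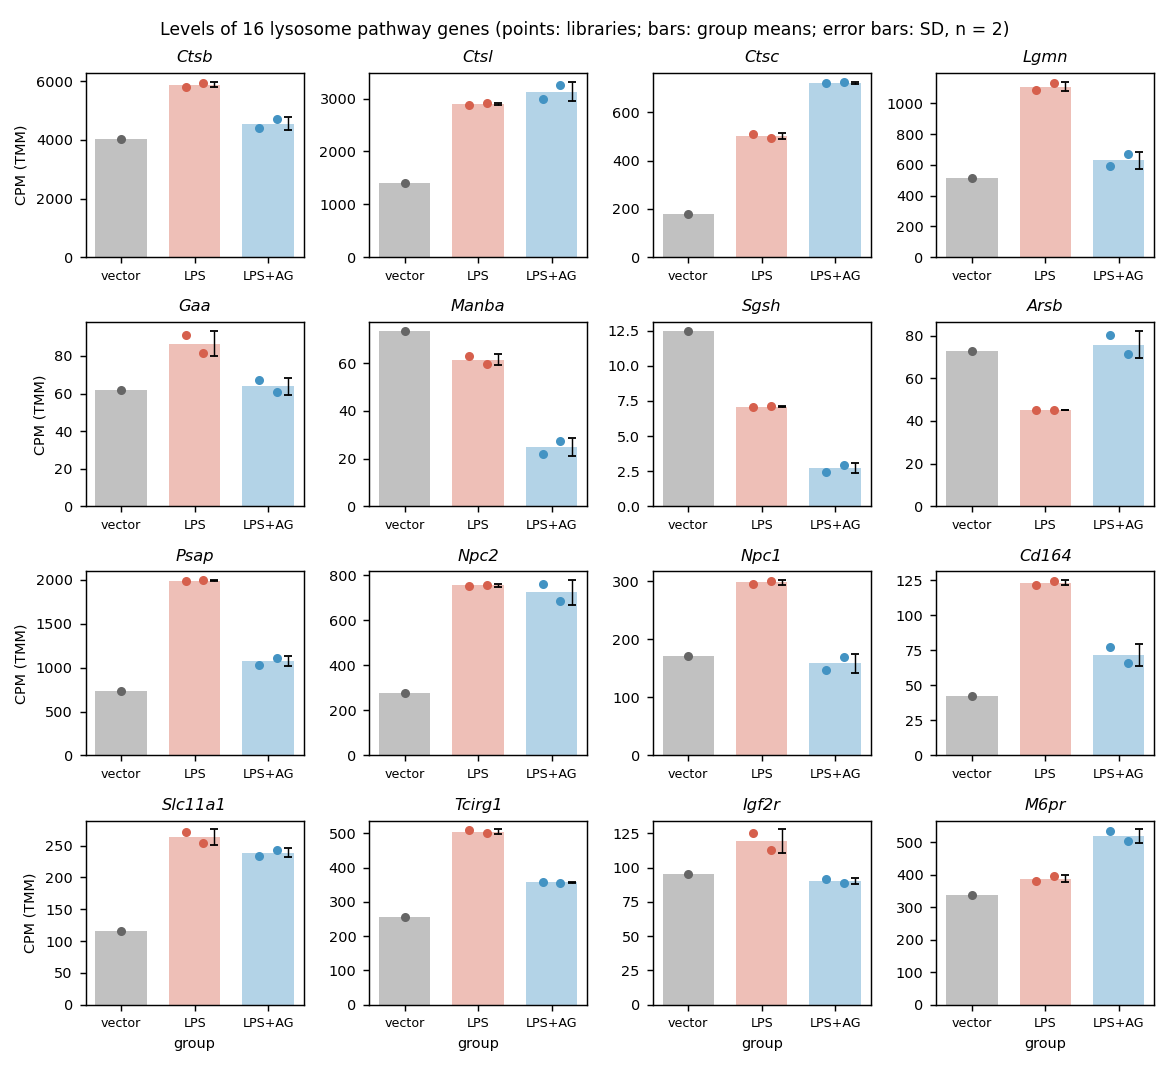
CPM scaled by TMM of 16 genes in each library (points), with group means (bars) and SD (error bars, n = 2; vector has 1 library). Psap, Gaa, Lgmn, Npc1, Cd164 and Tcirg1 were high in both LPS libraries and lower in both arctigenin libraries, Npc2, Ctsl and Slc11a1 were above vector in all 4 treated libraries, and Ctsc, Arsb and M6pr were higher with arctigenin than with LPS.

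Proton pump genes fell with arctigenin in 7 of 8 cases with 0 rises (class median −0.45), beside 22.0% and 22.8% of all genes tested. The pump has a membrane sector through which protons pass and a catalytic sector on the cytosolic side. Tcirg1, a membrane sector subunit with a large role in osteoclasts, stood at 257 CPM in vector, 509.9 and 500.5 CPM with LPS, and 357 and 356 CPM with LPS and arctigenin. It rose 1.97-fold with LPS (log2 0.98 ± 0.07, SE, adjusted p = 2.84e-06) and fell 1.42-fold with arctigenin (log2 −0.50 ± 0.06, SE, adjusted p = 8.93e-05). Its relatives Atp6v0a1 and Atp6v0a2 and the stalk subunit Atp6v0d1 fell 1.58-fold, 1.51-fold and 1.60-fold with arctigenin. Atp6v0d1 stood at 139 CPM in vector, 172 and 156 CPM with LPS, and 98.7 and 107 CPM with LPS and arctigenin. The catalytic sector subunit Atp6v1h fell 1.32-fold. Atp6v0b fell 1.24-fold and the accessory subunit Atp6ap1 1.21-fold, with adjusted p of 0.00349 and 0.00380, and of 0.0643 and 0.0588 without LPS replicate 1. Atp6v0c, the ring subunit and the most abundant per length of the 8, was not called with arctigenin (log2 −0.14). With LPS 4 pump genes rose and 0 fell, but of these Tcirg1 alone kept its call under every alternative. Leaving out LPS replicate 1 left 1 rise, and leaving out LPS replicate 2 left 2.

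A further 10 pump genes that the pathway annotation does not hold, most of them of the catalytic sector, were read as well. With arctigenin 7 of these fell and 0 rose (median −0.41), beside 22.0% and 22.8% of all genes tested. With LPS 3 of them rose and 1 fell, beside 27.1% and 24.9% of all genes. Atp6v1c1 fell 1.73-fold with arctigenin (adjusted p = 6.94e-06), with 294 CPM in vector, 272 and 272 CPM with LPS, and 154 and 160.1 CPM with LPS and arctigenin. The nucleotide-binding subunits Atp6v1a and Atp6v1b2 fell 1.42-fold and 1.58-fold. Of the 3 pathway genes set aside by name, the osteoclast pump subunit Atp6v0d2 fell with arctigenin (adjusted p = 2.78e-05). It stood at 4.31 and 5.37 CPM with LPS, and at 0.319 and 0.316 CPM with LPS and arctigenin. The latter levels rest on few counts, and their closeness does not measure counting error. Acp5 fell 1.48-fold with arctigenin, and Ctsk was not called.

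The adaptor and sorting genes were the class with the smallest median change with arctigenin (−0.12). With arctigenin 48.3% of the class was called, near the 44.8% of all genes tested. Over all genes 22.0% fell and 22.8% rose with arctigenin, and 27.1% rose and 24.9% fell with LPS. Of the 29 adaptor and sorting genes 9 fell and 5 rose with arctigenin, and 12 rose and 5 fell with LPS. Without LPS replicate 1 the arctigenin counts were 5 and 3, and without LPS replicate 2 there were 5 falls. The clathrin heavy chain Cltc, the vesicle coat itself, passed the test in neither comparison and stood at 779 CPM in vector, 910.2 and 851 CPM with LPS, and 821 and 798 CPM with LPS and arctigenin. The light chain Clta passed in neither as well. The light chain Cltb was higher with arctigenin, 1.25-fold (adjusted p = 0.0106, and 0.115 without LPS replicate 1). The adaptor complex AP-1 works between the Golgi and endosomes, and its subunit genes Ap1s1 and Ap1m1 rose 1.30-fold and 1.26-fold with arctigenin. The other AP-1 subunit genes of the class were not called with arctigenin, and some of them rose with LPS.

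Subunits of AP-3, which sorts membrane proteins to lysosomes, went both ways with LPS. Ap3s1 stood at 102 CPM in vector, 233 and 245 CPM with LPS, and 178 and 172 CPM with LPS and arctigenin, with a rise of 2.35-fold (log2 1.23 ± 0.08, SE, adjusted p = 9.93e-07) and a fall of 1.37-fold with arctigenin (log2 −0.45 ± 0.06, SE, adjusted p = 0.000253). Ap3m2, Ap3m1 and Ap3b1 rose 2.12-fold, 1.50-fold and 1.49-fold with LPS, while Ap3d1, the large delta subunit, fell 1.60-fold (log2 −0.67 ± 0.09, SE, adjusted p = 0.000159). Of AP-4, Ap4b1 fell 1.46-fold with LPS and 1.40-fold with arctigenin, and Ap4m1 fell 1.55-fold with LPS. Without predicted transcripts the LPS change of Ap4m1 was log2 −0.55 and was not called. Gga2, a clathrin adaptor that binds sorting receptors at the Golgi, had the largest fall of the class with arctigenin, 2.46-fold (log2 −1.30 ± 0.20, SE, adjusted p = 0.000665), with 26.0 CPM in vector, 16.7 and 13.6 CPM with LPS, and 4.95 and 7.33 CPM with LPS and arctigenin. Its fall with LPS, 1.72-fold (adjusted p = 0.0117), was lost without LPS replicate 2 (0.0869).

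With arctigenin the smaller receptor that reads the phosphomannose tag was called higher, while the larger receptor and a subunit of the enzyme that starts the tag were called lower. Gnptab, the catalytic subunit of this enzyme, rose 1.91-fold with LPS (log2 0.93 ± 0.08, SE, adjusted p = 8.39e-06), with 61.3 CPM in vector, 116 and 118 CPM with LPS, and 97.1 and 97.4 CPM with LPS and arctigenin. Its fall with arctigenin, 1.20-fold (adjusted p = 0.00694), was lost without LPS replicate 1 (0.0567) or 2 (0.0591), and was log2 −0.09 without predicted transcripts. M6pr, the smaller receptor, stood at 337 CPM in vector, 380.5 and 396 CPM with LPS, and 534 and 504 CPM with LPS and arctigenin. It rose 1.34-fold with arctigenin (log2 0.42 ± 0.06, SE, adjusted p = 0.000419), with both arctigenin libraries above all others. Its rise with LPS, 1.15-fold, had an adjusted p of 0.0450, and of 0.101 and 0.203 with LPS replicate 1 or 2 left out; under library totals its sign turned (log2 −0.05). Igf2r, the larger receptor, fell 1.32-fold with arctigenin (log2 −0.40 ± 0.07, SE, adjusted p = 0.00150), with 95.4 CPM in vector, 125 and 113 CPM with LPS, and 92.0 and 88.9 CPM with LPS and arctigenin. Its rise with LPS, 1.25-fold (adjusted p = 0.0120), was lost without LPS replicate 1 (0.0943) and after a correction for transcript length (0.467). Nagpa, which uncovers the tag, fell 1.45-fold with LPS. Its arctigenin call, 1.22-fold higher (adjusted p = 0.0445), was lost without LPS replicate 1 (0.200), LPS replicate 2 (0.130) or LPS with arctigenin replicate 2 (0.174). The sorting receptor Sort1 was scarce, between 2.03 and 4.62 CPM; its rise with LPS (adjusted p = 0.0265) was lost without LPS replicate 1 (0.0611) or 2 (0.127).

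LPS with arctigenin against vector shows where both treatments together left the genes, and it shares its libraries with the other comparisons. By this test 32 of the 111 genes were higher and 40 lower, 28.8% and 36.0%, beside 30.4% and 25.7% of all genes tested (56.2% in either direction). Under library totals 20 were higher and 60 lower. Ctsc (3.99-fold), Npc2 (2.62-fold) and Ctsl (2.22-fold) were among those higher. Psap (1.45-fold) and Tcirg1 (1.39-fold) were also above vector. Sgsh, Gga2, Manba and Dnase2a were among those lower, by 4.61-fold, 4.23-fold, 2.96-fold and 2.78-fold. For Ctsb, Ctsd, Ctss, Gaa, Npc1, Scarb2 and Lamp1 the difference from vector did not pass the test, with log2 values from −0.11 to 0.18. This rests on the scaling: under library totals Ctsd, Ctss, Npc1, Scarb2 and Lamp1 were called lower than vector (adjusted p from 0.00147 to 0.0241). Ctsb was called higher by DESeq2 (0.0418), by limma-voom (0.0324) and without LPS with arctigenin replicate 1 (0.0164). Npc1 was called lower after the length correction (0.0148) and without LPS with arctigenin replicate 2 (0.0310). The summed counts of the 111 genes were 2.84% of all counts in vector, 3.41% and 3.41% with LPS, and 2.63% and 2.77% with LPS and arctigenin. Ctsb, Ctsd and Ctsl made up between 29.3% and 33.7% of these summed counts. Without them the other 108 genes held 2.01% in vector, 2.30% and 2.30% with LPS, and 1.77% and 1.84% with LPS and arctigenin.

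The MiT/TFE factors and the cystatins were read from short prepared lists. Of 4 factor genes Mitf rose 1.74-fold with LPS and fell 1.40-fold with arctigenin, and Tfec fell 1.61-fold with arctigenin. Tfeb and Tfe3 were called in neither of these comparisons. With both treatments against vector Tfeb and Tfec were called lower, 1.50-fold and 1.77-fold, Mitf was called higher, 1.24-fold, and Tfe3 was not called. Tfeb stood at 12.1 CPM in vector, 9.17 and 9.94 CPM with LPS, and 8.14 and 8.07 CPM with LPS and arctigenin. Of the cathepsin inhibitors, Cst3, the secreted cystatin C, moved opposite to the 6 of 14 proteases that rose with LPS and fell with arctigenin. It stood at 465 CPM in vector, 302 and 336 CPM with LPS, and 500.2 and 429 CPM with LPS and arctigenin. It fell 1.46-fold with LPS and rose 1.46-fold with arctigenin (adjusted p = 0.00168 and 0.000833). Cstb, the cytosolic inhibitor, rose 1.42-fold with LPS and was not called with arctigenin. Stfa3 had 0 estimated counts in vector against 11 and 20 with LPS. Its LPS mean was 6.46-fold a floor of 3 counts in the vector library, without allowance for counting error in the LPS libraries.

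On build mm9 the gene models of the leading genes are all annotated as protein-coding. Ctsb spans chromosome 14 from 63741302 to 63764758, Ctsc chromosome 7 from 95426595 to 95459398 and Psap chromosome 10 from 59740375 to 59765345, each on the plus strand. Ctsl spans chromosome 13 from 64464522 to 64471614 and Lgmn chromosome 12 from 103632294 to 103678023. The latter pair is on the minus strand. Of the 111 genes 23 have a model that overlaps another protein-coding gene on mm9, among them Ctsa, Ctsb, Ctsd, Ctsz, Lamp1, Npc1, Ppt1 and Sgsh. The sources used here do not give the strand setting of the counting, and reads from such neighbours may not be separable. Atp6v0c and Entpd4 have close copies in the mouse genome and are uncertain for that reason.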

How the data were processed

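RNA of RAW264.7 cells was measured by RNA-seq in 5 libraries: vector (1), LPS (2) and LPS with arctigenin (2). The authors deposited a table of estimated counts per transcript for 75959 transcripts, with decimals and without normalization, and with a pathway annotation per row. Per the submitters' processing notes, Trimmomatic, HISAT2, Cufflinks, HTSeq, DESeq and build mm9 were used; the sources used here do not give which of them made the deposited counts, or whether strand was used. Estimated counts were summed per gene and rounded to whole numbers for testing.

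Genes were filtered with edgeR's filterByExpr (minimum count 10, minimum total 15), which kept 11575 genes, all 111 lysosome genes among them, and left out 10303. Libraries were scaled by TMM and 1 quasi-likelihood model of group was fitted to all 5 libraries (edgeR 4.0.16, R 4.3.3), leaving 2 residual degrees of freedom (common biological coefficient of variation 7.13%). P-values were adjusted by the Benjamini-Hochberg method over all genes tested, and genes under 0.05 were called. SE is the size of the log2 fold change divided by the square root of F. The vector library is assumed to vary like the others. Separate cultures are not stated for the replicates, and p-values therefore measure spread among these libraries, which may be technical. The interval covers counting error alone, and the floor covers that of the vector library alone.

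Alternatives were DESeq2 1.42.0, limma-voom (limma 3.58.1), DESeq2's size factors in edgeR, no filter, curated transcripts alone, leaving out each library, a replicate block, and a fit without vector; library totals and a length correction were added after the data were seen. The fitting step was tested on simulated data. The genes, classes and lists were chosen with earlier results of these data known. Chosen for naming were up to 3 largest rises and falls among called genes in each class and 28 key genes. Values per library and full statistics are given for part of these, and fold changes alone for others. Any of the 111 could be named, and 5 of them are counted but not reported by name here. CPM per kilobase uses the longest GENCODE vM1 transcript. Promoters came from RefSeq (GRCm38.p6), matched by current symbol, and 24 genes had no match.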

Additional observations from a re-analysis of the deposited data

How the results depend on the processing

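With LPS, 38 of 64 calls held under every alternative (30 higher, 8 lower), with arctigenin against LPS 51 of 75 (5 higher, 46 lower), and with both against vector 47 of 72 (20 higher, 27 lower). Library totals were chosen after seeing the data, like the length correction. They gave 32 higher and 30 lower with LPS, 7 higher with arctigenin, and 20 higher and 60 lower against vector. The median of all genes against vector was then −0.26 with LPS and −0.27 with both. TMM by its construction aligns the typical gene between libraries, and its medians were −0.01 and 0.03. Curated transcripts alone gave 37 higher and 9 lower with LPS, and 6 higher and 51 lower with arctigenin. Against vector they gave 27 higher and 28 lower with both treatments. The cause of these shifts was not tested. DESeq2 gave 44 higher and 12 lower with LPS, and 9 higher and 59 lower with arctigenin. Leaving out 1 library gave 39 to 54 higher and 11 to 19 lower with LPS, 5 to 10 higher and 51 to 63 lower with arctigenin, and 29 to 33 higher and 33 to 42 lower against vector. A lone remaining replicate is assumed to vary like the others. Replicate numbers name libraries without a stated pairing, and deviations of same-numbered libraries correlated at −0.0084; with the replicate block the arctigenin counts were 11 higher and 64 lower. No paired analysis was possible against vector because it has 1 library.

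Some log2 values changed sign, most of them of genes not called. With LPS and library totals these included M6pr (−0.0491), Ppt1 (−0.14), Hgsnat (−0.18), Gla (−0.23), Asah1 (−0.22), Lamp1 (−0.0879), Cd68 (−0.0015), Mcoln1 (−0.0276) and Cltc (−0.0748). The pump genes Atp6v0d1 (−0.0159), Atp6v0a1 (−0.0378), Atp6v1h (−0.18), Atp6v0b (−0.24), Atp6v0c (−0.0218) and Atp6ap1 (−0.18) turned there as well. The length correction gave Ap1s1 0.12, Igf2r −0.0792 and Cltc −0.12, curated transcripts gave Ctns 0.18, and Gla ranged from −0.0767 to 0.1174 as 1 library was left out. With arctigenin against LPS, Hyal1 was 0.0006 with the length correction and −0.1513 to 0.1227 as 1 library was left out. Fuca1 ranged from −0.048 to 0.1407 as 1 library was left out, Npc2 from −0.1381 to 0.015, and Pla2g15 from −0.0114 to 0.118. Against vector, sign changes under library totals included Galns −0.19, Arsb −0.24, Ap1m1 −0.13, Ctsb −0.12, Ctsd −0.25, Ctss −0.25, Gaa −0.25, Cd68 −0.10, Cd63 −0.0067 and Cltc −0.24. Ap3b1 (−0.036) and Cltb (−0.0027), called higher under TMM, turned there too. The length correction gave Arsb −0.0139, Lamp1 0.0061 and Cltc −0.19, and curated transcripts gave Npc1 0.0151 and Cltc −0.0455. As 1 library was left out, Arsb ranged from −0.0343 to 0.1377, Ctss from −0.0002 to 0.0894, Gaa from −0.0246 to 0.1204 and Galns from −0.1533 to 0.3295. Some genes not called with LPS were called without either library of LPS with arctigenin: Tpp1, Lamp1 and Cltc higher, Hexa and Manba lower. With arctigenin Lamp2, Slc11a1, Cltc and Atp6v0c were called lower under library totals, Lamp2 also by DESeq2, and without LPS with arctigenin replicate 2 Atp6v0c was called lower and Napsa higher. Curated transcripts alone moved Man2b1 with LPS to −1.64 and Slc17a5 with arctigenin to −1.55; the cause was not tested. Low counts limit Ctsh, Abcb9, Lamp3 and Laptm4b, each under 42 estimated counts in every library.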
